A study of Mus musculus with 19 samples.

Results

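The 8 arrays of OT-I T cells sorted early after transfer into irradiated hosts fell into 2 sets, arrays 1 to 3 and arrays 4 to 8, although the labels give them 1 condition. The sets were chosen by the correlations between these arrays over all transcripts measured. Those values are therefore described here as means, ranges and counts, and no test of one set against the other is given. The 8 arrays are part of a series of 19. OT-I cells are mouse CD8+ T cells with a transgenic receptor for an ovalbumin peptide, and in every group they had been transferred into B6 hosts and taken from lymph node or spleen. The other groups used below are OT-I cells from unirradiated hosts (n = 4) and from irradiated hosts at day 40 (n = 4) and day 115 (n = 3). The titles place the 8 arrays at day 5, whereas their descriptions give day 6 as the day of the sort, which is also that of the unirradiated hosts. The day of the title is used as the name. The title of array 1 is written in another form than those of arrays 2 to 8, and the descriptions of arrays 1 and 2 do not name the cells. No age, sex, radiation dose, RNA handling or scan date is given for any array, and nothing says which arrays came from separate animals. P-values below thus measure the spread between these samples, which may be technical.

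Messenger RNA was read as 1 signal intensity per probe set and array on an oligonucleotide array, and differences are on the scale of log2(signal + 16). This scale understates changes of dim genes. Of 12422 probe sets, 8695 had a mean signal over all 19 arrays above 26.4, the 30th percentile, and were examined. The median signal of the day-5 arrays over all probe sets ran from 49.6 to 53.7. Differences are arrays 1 to 3 minus arrays 4 to 8 unless another comparison is named, and a probe set is called separated when the sets did not overlap and differed at least 2-fold. Where a gene had several probe sets, the one of highest mean signal stands for it.

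Immediate early genes such as Fos, Junb and Ier2 need no new protein to be transcribed. In T cells they are switched on within minutes by receptor signals, growth factors or stress, and their messages are short-lived. The inducible heat shock proteins, chiefly Hspa1a and Hspa1b, are chaperones that bind unfolded proteins. Their genes are driven by heat shock factor through paired GAA and TTC blocks.

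The promoters of 5 stress genes that were higher in arrays 1 to 3 are printed as examples. They are not the 5 largest differences, and other early and chaperone genes, such as Egr1 and Hspa4, were lower. Fos, Junb and Dusp1 carry letters of the cAMP response element, and Hspa1a and Hspa1b those of the heat shock element. None of the 5 carries both. Each line gives the 250 bases before the annotated start, 5′ to 3′ on the gene's strand, from RefSeq on GRCm38.p6. Capitals mark TGACG, the half-site of the cAMP response element, searched on both strands, GAANNTTC, the heat shock pair, which reads the same on both, and the TATA box TATAAA, searched on the printed strand only. Fos lies at chr12:85473640-85473889 on the plus strand. On the minus strand lie Junb at chr8:84978749-84978998, Dusp1 at chr17:26508473-26508722, Hspa1a at chr17:34972157-34972406 and Hspa1b at chr17:34959239-34959488.
Fos: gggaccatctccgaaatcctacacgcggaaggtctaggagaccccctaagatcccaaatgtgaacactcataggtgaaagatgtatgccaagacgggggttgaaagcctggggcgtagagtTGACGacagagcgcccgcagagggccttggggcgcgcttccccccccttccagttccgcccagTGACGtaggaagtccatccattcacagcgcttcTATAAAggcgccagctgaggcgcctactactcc
Junb: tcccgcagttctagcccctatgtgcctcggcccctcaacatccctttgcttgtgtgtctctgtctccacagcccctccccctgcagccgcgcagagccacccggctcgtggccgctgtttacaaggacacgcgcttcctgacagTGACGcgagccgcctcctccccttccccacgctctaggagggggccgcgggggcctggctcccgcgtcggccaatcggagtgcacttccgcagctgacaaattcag
Dusp1: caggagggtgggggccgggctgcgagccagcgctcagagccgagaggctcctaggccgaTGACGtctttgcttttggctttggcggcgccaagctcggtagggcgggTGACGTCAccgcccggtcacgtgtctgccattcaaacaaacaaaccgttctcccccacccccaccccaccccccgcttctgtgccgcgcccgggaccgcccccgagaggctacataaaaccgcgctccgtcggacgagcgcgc
Hspa1a: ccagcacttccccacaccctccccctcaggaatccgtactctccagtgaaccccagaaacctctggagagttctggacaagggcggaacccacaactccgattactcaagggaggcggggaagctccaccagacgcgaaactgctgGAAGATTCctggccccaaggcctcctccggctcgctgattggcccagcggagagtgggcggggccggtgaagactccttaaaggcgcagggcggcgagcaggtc
Hspa1b: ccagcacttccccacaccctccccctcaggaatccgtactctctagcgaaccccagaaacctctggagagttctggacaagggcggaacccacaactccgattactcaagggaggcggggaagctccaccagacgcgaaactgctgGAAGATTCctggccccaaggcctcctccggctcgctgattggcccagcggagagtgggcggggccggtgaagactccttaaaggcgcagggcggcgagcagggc

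TGACG stood at -129 and -66 of Fos, at -106 of Junb and at -191, -143 and -140 of Dusp1, where the last 2 matches overlap as TGACGTCA. Only Fos of the 5 had TATAAA, at -33. GAANNTTC stood at -104 in both Hspa1a and Hspa1b. These letters are not rare, since TGACG was found in 17.8%, TATAAA in 7.59% and GAANNTTC in 6.69% of 32851 such windows, and a match is a description of the sequence. The windows of Hspa1a and Hspa1b differed at 3 of 250 bases. The 2 genes are near-identical copies, so their probe sets may not tell them apart.

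Arrays 1 to 3 stood about as far from arrays 4 to 8 as from the unirradiated hosts. Pearson correlations of log2(signal + 16) across the 8695 probe sets ran from 0.958 to 0.991 within arrays 1 to 3 (3 pairs) and from 0.956 to 0.994 within arrays 4 to 8 (10 pairs). The 15 pairs between the sets ran from 0.856 to 0.903, below every pair within a set. Arrays 4 to 8 correlated with the unirradiated arrays at 0.952 to 0.981 (20 pairs), whereas arrays 1 to 3 did so at 0.841 to 0.889 (12 pairs). Cells of arrays 4 to 8 thus stood nearer to the unirradiated hosts than to the other day-5 arrays. Within the sets, arrays 2 and 3 and arrays 7 and 8 were the most alike pairs, at 0.991 and 0.994. These correlations are across probe sets of shared libraries, and probe sets are not independent replicates.

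**Figure D1:**
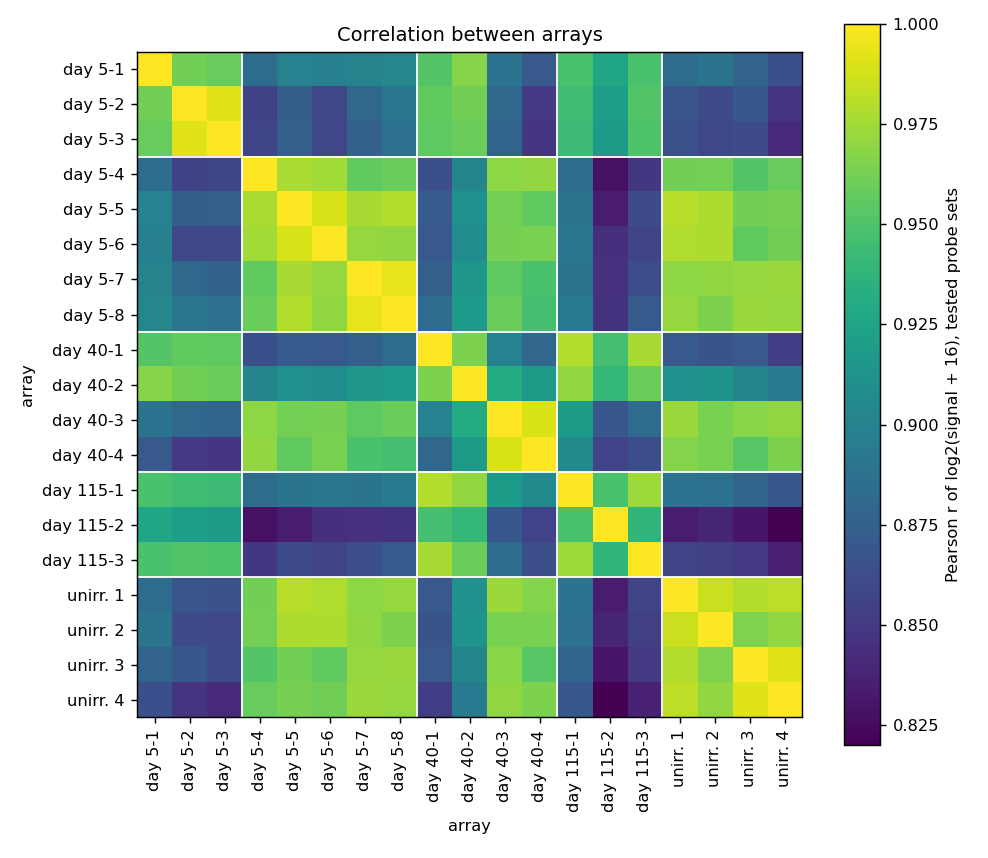
Pearson correlation of log2(signal + 16) over 8695 probe sets for each pair of the 19 arrays, with the day-5 arrays listed first. Pairs of day-5 arrays within a set lie at 0.956 or above, and pairs between arrays 1 to 3 and arrays 4 to 8 at 0.903 or below.

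In all, 742 probe sets were separated, or 8.53% of those examined, with 174 (2.00%) higher and 568 (6.53%) lower in arrays 1 to 3. The sets did not overlap in 4148 probe sets (47.7%), of which 2565 were higher and 1583 lower. Smaller differences thus leaned upward in arrays 1 to 3 and large ones downward. At 4-fold the numbers were 6 higher and 61 lower, and at 8-fold 2 higher, Fos and a probe set with no symbol, and 4 lower, Nras, Atp13a3, Tbl1xr1 and Dhx9. The median difference over all probe sets was 0.09 and the extremes were -3.33 and 3.33. The median SD was 0.21 over all 8 arrays, 0.13 among arrays 1 to 3 and 0.13 among arrays 4 to 8, against 0.12 among the unirradiated arrays. By genes with 1 symbol, 128 of 6409 were separated and higher (2.00%) and 469 lower (7.32%).

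Fos, a subunit of the AP-1 transcription factor, was the gene with the largest positive difference. Its signals were 274, 907 and 146 in arrays 1 to 3 and 21.4, 14.8, 15.6, 28.3 and 16.6 in arrays 4 to 8, a difference of 3.33. Even the lowest of arrays 1 to 3 lay far above the highest of arrays 4 to 8, but arrays 1 to 3 differed among themselves, with array 2 highest. Ier2, a nuclear immediate early protein, read 926, 767 and 392 against 123, 169, 159, 159 and 148, a difference of 2.01. In Ier2 the highest was array 1, so Fos and Ier2 did not rank the 3 arrays alike.

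Dusp1, a phosphatase that switches off the MAP kinases, read 99.6, 253 and 92.1 in arrays 1 to 3 and 38.8, 39.3, 31.0, 36.3 and 37.6 in arrays 4 to 8, a difference of 1.51. Junb, an AP-1 subunit, read 236, 430 and 260 against 98.9, 98.5, 117, 118 and 120, a difference of 1.32. As in Fos, array 2 was the highest for both. A second probe set of Junb was separated too, with a difference of 1.54. Pim1, a kinase that promotes survival, and Dusp2, a nuclear phosphatase of activated lymphocytes, differed by 1.30 and 1.04.

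Other early genes moved less or in the opposite direction. Of 35 immediate early genes on the array 32 were examined, and 6 were separated upward and 1 downward, with a median of 0.26 against 0.09 for all probe sets. Among all genes 2.00% were separated upward and 7.32% downward. Fosb read 92.3, 179 and 98.4 against 76.5 to 90.7, a difference of 0.44 that rested mostly on array 2. Jun, the partner of Fos, differed by 0.50, the orphan receptor gene Nr4a1 by 0.48, and Myc by 0.84. The sets did not overlap in these 4 genes but differed less than 2-fold. Atf3, at 0.03, and Egr2, at -0.07, overlapped. Egr1, a zinc finger factor induced by receptor signals, went the other way, at 116, 121 and 112 in arrays 1 to 3 and 191, 264, 341, 406 and 404 in arrays 4 to 8, a difference of -1.30. Klf6, at -0.84, was also lower in every one of arrays 1 to 3. Hspb1 was under the filter, and Cd69, Rgs1 and Malat1 had no probe set of their own.

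**Figure D2:**
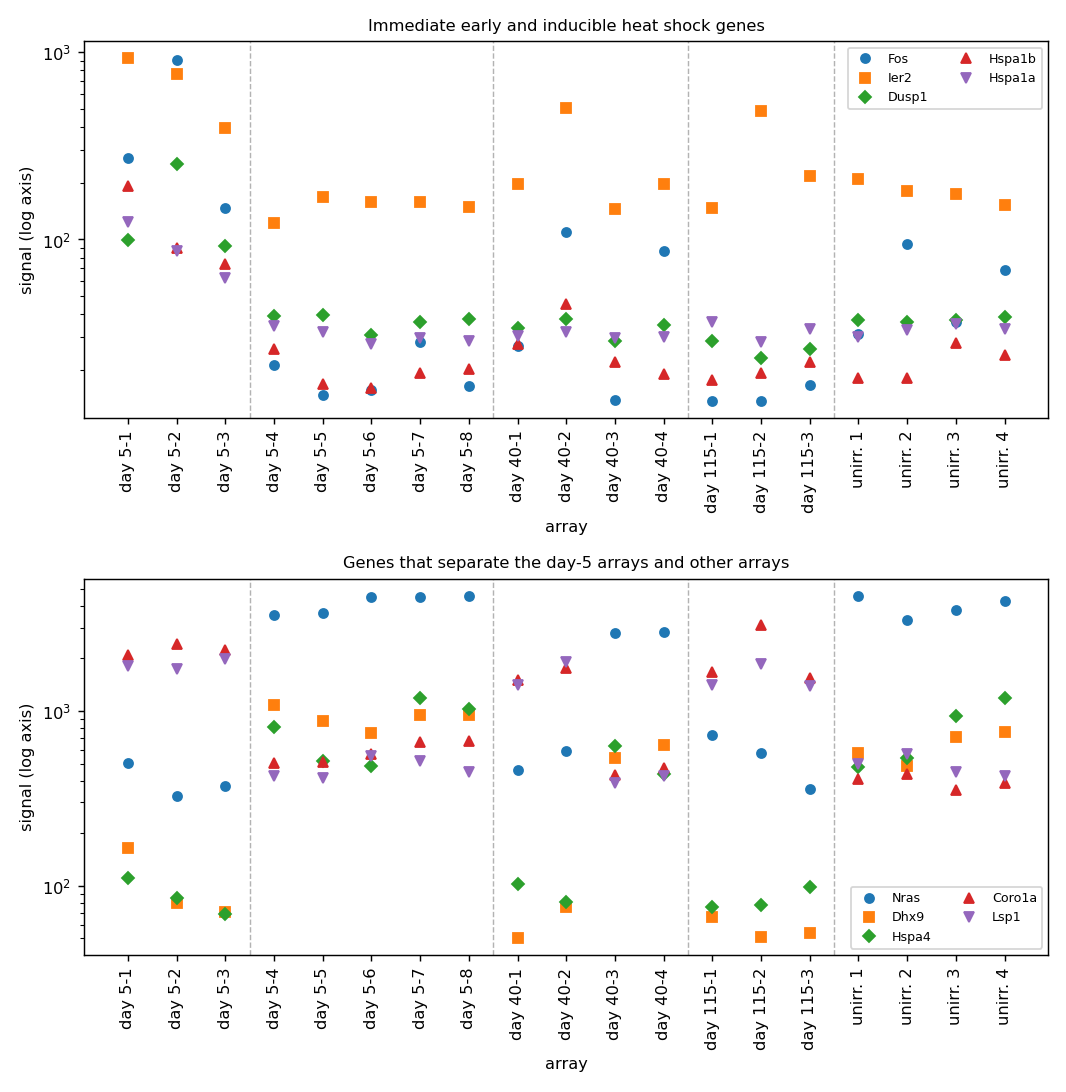
Signal intensity on a log axis for each of the 19 arrays, 1 point per gene and array, with dashed lines between the sets and groups. In the upper panel Fos, Ier2, Dusp1, Hspa1b and Hspa1a are high in day-5 arrays 1 to 3 (Dusp1 at 92.1 or above) and low in arrays 4 to 8 (Dusp1 at 39.3 or below), and in the lower panel Nras, Dhx9, Hspa4, Coro1a and Lsp1 divide the day-5 arrays, and at day 40 they set arrays 1 and 2 apart from 3 and 4.

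Among heat shock genes the inducible Hsp70 genes were separated upward and 8 of the 25 other chaperone genes examined downward. The shares of all genes were 2.00% upward and 7.32% downward. Hspa1b read 194, 89.5 and 74.0 in arrays 1 to 3 and 26.0, 16.8, 16, 19.3 and 20.4 in arrays 4 to 8, a difference of 1.82. Hspa1a read 125, 86.5 and 62.0 against 34.5, 31.9, 27.8, 29.7 and 28.8, a difference of 1.16. Array 1 was the highest in both genes, whereas array 2 was the highest in Fos, Junb and Dusp1. No other chaperone of the 27 examined (of 31 on the array) was separated upward. The sets overlapped for Dnajb1 and Hspa8. Dnajb1, the Hsp40 partner induced with Hsp70, differed by 0.13, and the constitutive Hspa8 by 0.10.

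Downward, 8 of the 27 chaperone genes were separated, against 7.32% of all genes, and the heat shock list had a median of -0.51. Hspa4, an Hsp110 exchange factor, read 111, 85.0 and 68.7 in arrays 1 to 3 and 809, 520, 482, 1179 and 1027 in arrays 4 to 8, a difference of -2.91. Its 3 other probe sets differed by -0.79, -0.07 and 0.15, so this value belongs to 1 probe set. Hspd1, the mitochondrial Hsp60, read 556, 514 and 355 against 3432, 1981, 2195, 2570 and 2290, a difference of -2.35, while its dimmer probe set differed by 0.09. The Hsp90 cochaperone Chordc1 differed by -2.10, the Hsp60 partner Hspe1 by -1.67, the Hsp40 gene Dnaja1 by -1.63, the ER cochaperone Dnajc3 by -1.56, the mitochondrial Hsp70 Hspa9 by -1.18 and the inducible Hsp90 gene Hsp90aa1 by -1.01.

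Counts in the other stress lists are read against the 2.00% of all genes separated upward and 7.32% downward. Of 21 genes of the ER stress list, 3 were separated, all lower, the cochaperone genes Dnajc3 and Dnajb11, at -1.56 each, and the disulfide isomerase gene Pdia3, at -1.29. Hspa5, the main ER chaperone, differed by 0.12. In the integrated stress response, 2 of 19 were separated and lower, the serine synthesis gene Psat1, at -1.24, and Ddit4. Ddit4 is an inhibitor of mTOR induced by several stresses and read 489, 243 and 200 against 1179, 1920, 1658, 2352 and 2602, a difference of -2.63. Of 25 oxidative stress genes 1 was separated, the mitochondrial superoxide dismutase gene Sod2, at -1.33. Of 13 p53 targets 1 was, the peptide transporter gene Tap1, at 1.11, with -0.10 in its other probe set. In hypoxia and glycolysis 4 of 20 were lower, Ddit4 among them, with Pgk1, an enzyme of glycolysis, at -1.68 and the hypoxia factor Hif1a at -1.13. Of 27 apoptosis regulators 1 was higher, Pdcd6ip, at 1.01, and 2 were lower, the cytochrome c gene Cycs, at -1.85, and Bcl2, at -1.27. The other probe set of Pdcd6ip differed by -0.50 and those of Bcl2, which opposes apoptosis, by -0.33 and 0.48, so no direction is given for Pdcd6ip or Bcl2.

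Among 19 NF-kB genes 1 was separated upward and 1 downward, against 2.00% and 7.32% of all genes, with a median of 0.36. The adaptor Traf1 differed by 1.05. Nfkbia, the inhibitor that holds NF-kB in the cytosol, had probe sets that disagreed. Its brighter one read 82.2, 126 and 88.3 in arrays 1 to 3 and 209, 248, 242, 328 and 297 in arrays 4 to 8, a difference of -1.30. The dimmer one gave 1.55 in the opposite direction. No direction is therefore given for Nfkbia. It was the only one of 133 separated genes with several examined probe sets that had a probe set separated the other way. In 86 of the 133 every other probe set had the same direction, and in 32 another one was also separated.

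Beyond the stress genes, the largest positive differences belonged to genes of varied function. Coro1a, an actin-binding protein of leukocytes, read 2079, 2414 and 2226 in arrays 1 to 3 and 507, 511, 570, 662 and 673 in arrays 4 to 8, a difference of 1.92. Lsp1, a lymphocyte actin-binding protein, read 1800, 1749 and 1972 against 427, 412, 555, 517 and 447, a difference of 1.94, with 1.92 in its other probe set. Ptprcap, which associates with CD45, read 2384, 2829 and 2617 against 414, 605, 623, 912 and 745, a difference of 2.00. Coro1a and Lsp1 varied little within either set, whereas Ptprcap spanned more than 2-fold within arrays 4 to 8.

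Tmsb10, a small actin-sequestering peptide, read 2553, 2671 and 2471 against 150, 338, 277, 1813 and 1198, a difference of 2.31. Here arrays 4 to 8 were themselves split, with arrays 7 and 8 nearer to arrays 1 to 3. The phosphatase subunit Ppp4c read 1843, 774 and 651 against 188, 206, 245, 261 and 239, a difference of 2.03. The others of the 12 largest were Twf2, an actin monomer-binding protein, at 1.86, the presenilin-related peptidase gene H13 at 1.82, the spliceosome subunit Sf3b5 at 1.77 and the coatomer subunit Cope at 1.73, besides Fos, Ier2 and Hspa1b.

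The largest negative difference was that of Nras, a small GTPase of growth signalling. Its signals were 506, 328 and 370 in arrays 1 to 3 and 3520, 3637, 4473, 4469 and 4562 in arrays 4 to 8, a difference of -3.33. Its other probe set differed by -1.11. Dhx9, an RNA helicase, read 165, 79.7 and 70.6 against 1081, 871, 746, 952 and 945, a difference of -3.02. Smarca2, an ATPase of the SWI/SNF remodelling complex, read 83.8, 48.7 and 45.9 against 480, 482, 451, 597 and 537, a difference of -2.83. Signals of these genes in arrays 4 to 8 were high and even, so the gap is not one between dim values.

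The others of the 12 largest negative differences were Atp13a3, a transporter ATPase, at -3.11, Tbl1xr1, a corepressor exchange factor, at -3.05, Dynll2, a dynein light chain, at -2.95, Hspa4 at -2.91, the protease gene Ctse at -2.88 in its brightest probe set, Lrba, a vesicle protein needed for CTLA-4 recycling, at -2.72, Kmt2e, a chromatin protein, at -2.72, Srsf1 at -2.68 and Ddit4 at -2.63. Other probe sets were smaller for Atp13a3, at -0.67, and Dynll2, at -0.40, and went the other way for Ctse, at 0.37 and 0.60. No direction is therefore given for Ctse. Kmt2e read 117, 152 and 145 in arrays 1 to 3 and 547, 912, 1138, 1315 and 1284 in arrays 4 to 8. Array 4 was the lowest of arrays 4 to 8 but still above every one of arrays 1 to 3.

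Splicing factors and nuclear RNA-binding proteins held the most separated genes of any list. Of 52 examined (of 53 on the array), 21 were separated and lower and 2 higher, with a median of -0.76 against 0.09 for all probe sets. Among all genes 7.32% were separated and lower and 2.00% higher. In the brightest of 5 equal bins of genes these shares were 21.9% and 5.07%. Srsf1, a serine- and arginine-rich splicing factor, read 81.9, 45.4 and 48.6 in arrays 1 to 3 and 570, 497, 570, 342 and 339 in arrays 4 to 8, a difference of -2.68. Its dimmer probe set was separated as well, at -1.08. Hnrnpa2b1, an RNA-binding protein of nuclear transcripts, read 692, 424 and 410 against 2893, 1961, 1884, 1909 and 2261, a difference of -2.09. The splicing regulators Srsf11 and Tra2b differed by -2.05 and -1.95. The 2 higher genes were Snrpb, an Sm protein of the small nuclear ribonucleoproteins, at 1.11 and Sf3a2, a subunit of the U2 particle, at 1.09. Other genes of such core particles were lower, as the Sm protein gene Snrpd3, separated at -1.45, and Sf3b1, at -0.79 without overlap.

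Counts in the next lists are read against 7.32% of all genes separated downward and 2.00% upward. In the brightest of 5 equal bins of genes these shares were 21.9% and 5.07%. Chromatin regulators were separated downward in 11 of 38 genes examined and upward in none, with a median of -0.50. After Smarca2 and Kmt2e came Rbbp7, a histone-binding subunit, at -2.35 and Hmgn1, a nucleosome-binding protein, at -2.32. Some members of the same complexes were higher in every one of arrays 1 to 3 by less than 2-fold, as Smarca4 at 0.80 and Smarcb1 at 0.89, both of SWI/SNF. Of 29 small GTPase genes 6 were separated, all lower, with Rab14 at -2.38 (-0.43 in its other probe set), Rab5a at -2.06 and Rab18 at -2.03, which act in vesicle traffic. Rac2, the Rac form of blood cells, differed by 0.71.

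Other housekeeping groups split internally. Of 54 oxidative phosphorylation genes, 7 were separated upward and 6 downward, against 2.00% and 7.32% of all genes. In the brightest of 5 equal bins of all genes these shares were 5.07% and 21.9%. Among subunits of respiratory complex III, Uqcrc1 differed by 1.40 and Uqcrb by -1.90. Uqcrc1 read 899, 680 and 747 against 276, 250, 334, 281 and 271, and Uqcrb read 543, 312 and 283 against 1240, 1389, 1598, 1412 and 1418. Of 37 proteasome genes 3 were higher and 4 lower, to be read against the same shares. The catalytic subunit gene Psmb2 differed by 1.51 and Psmc2, an ATPase of the regulatory particle, by -2.08. Some subunits that assemble in 1 complex thus differed in opposite directions between the sets, while most genes of both lists were not separated.

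The next counts stand beside 2.00% of all genes separated upward and 7.32% downward. Translation factors gave 3 higher and 3 lower of 28. Eif3k, a subunit of initiation factor eIF3, was at 1.50 and Eif5, a GTPase activator of initiation, at -1.55. Of 28 ribosomal protein genes 2 were separated, both higher. Rpl19 read 5617, 4931 and 5125 against 1120, 1853, 1714, 2930 and 2205, a difference of 1.47, and its dimmer probe set differed by 0.44. Of 61 cell cycle genes 3 were separated, all lower, with the G1 cyclin gene Ccnd2 at -2.32, the condensin subunit Smc4 at -1.58 and the checkpoint kinase gene Chek1 at -1.21. This count of 3 of 61 is not far from the 7.32% of all genes separated downward. The list had a median of -0.23, against 0.09 for all genes. Of 29 interferon-stimulated genes 3 were higher, of which the exonuclease gene Isg20 differed by 1.19, and 1 lower, the guanylate-binding protein gene Gbp3, at -1.45.

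**Figure D3:**
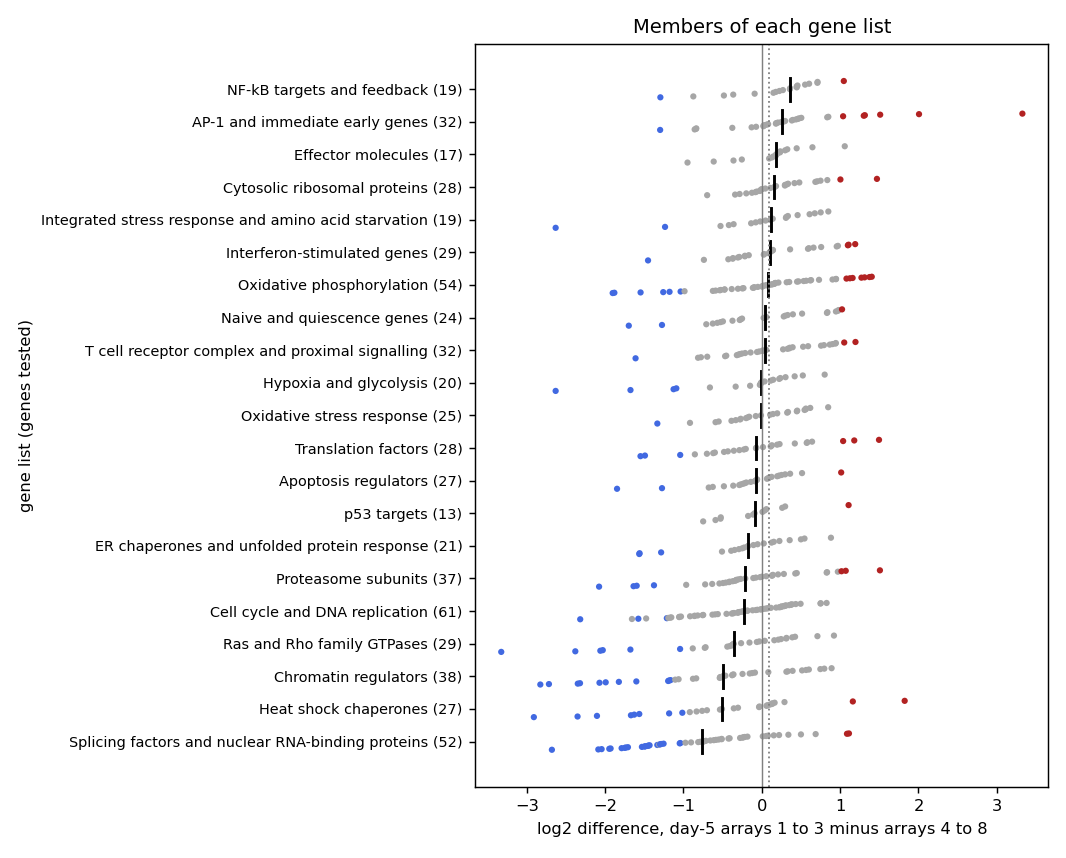
Log2 difference of each examined gene, day-5 arrays 1 to 3 minus arrays 4 to 8, by gene list, with the number of genes in brackets. Red points are separated and higher, blue points separated and lower, grey points neither, black bars are list medians and the dotted line is the median of all genes, 0.09. The splicing list lies farthest to the left, with a median of -0.76, and Fos farthest to the right, at 3.33.

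The cells of both sets carried the transcripts of CD8 T cells. Cd8a, the chain that defines them, read 1956, 1851 and 2161 in arrays 1 to 3 and 3300, 3238, 3906, 3477 and 3632 in arrays 4 to 8, a difference of -0.81. Its partner Cd8b1 read 5398, 5994 and 6070 against 2707, 3241, 3014, 4461 and 4052, a difference of 0.76. The 2 chains of the same receptor differed in opposite directions without overlap between the sets. Cd3e read 257, 237 and 236 against 218, 272, 282, 259 and 222, a difference of -0.03, and the sets overlapped.

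Of 32 genes of the T cell receptor and its proximal signals 2 were separated upward and 1 downward, with a median of 0.04. Cd3g, a signalling chain of the receptor, read 3201, 1071 and 964 against 384, 722, 807, 752 and 647, a difference of 1.20 to which array 1 gave the most. The kinase gene Zap70 read 1815, 2386 and 2574 against 989, 1028, 956, 1227 and 1170, a difference of 1.05. Ppp3ca, the catalytic subunit of calcineurin, differed by -1.61. None of 17 effector genes was separated, and 1 of 24 naive and quiescence genes was higher, the inhibitor of E proteins Id3 at 1.02. In that list Actn1, which cross-links actin, was lower, at -1.70, as was the brightest probe set of Bcl2. These counts of 3 of 32, 0 of 17 and 3 of 24 lie near the share of all genes, 2.00% upward and 7.32% downward.

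Markers of other cell types moved with some of this. The summed signal of 19 B cell markers ran from 2807 to 3620 in arrays 1 to 3 and from 1808 to 1956 in arrays 4 to 8. Of the 15 above the filter, 9 did not overlap, and those 9 were higher in arrays 1 to 3. Without overlap in either direction were 48.7% of all genes. Among all probe sets 29.5% were higher and 18.2% lower without overlap. The MHC class II gene H2-Aa was at 1.26. The immunoglobulin gene Ighm was at 1.00 and the B cell receptor chain gene Cd79b at 0.86, whereas Ms4a1, which encodes CD20, was at 0.03. The summed signal of 18 myeloid markers, 12 of them above the filter, ran from 2012 to 2074 against 3254 to 3641. Much of that sum was the cathepsin gene Ctss, at -1.25, with a mean signal of 1930 over all 19 arrays. Vcam1 was at -1.40, or 0.18 in its other probe set. The median of the 12 was only 0.03, and the macrophage receptor gene Csf1r was at 0.02. Without overlap, 2 of the 12 were lower and 1 higher, Tyrobp at 0.65. Summed signals overlapped for plasma cell, erythroid, CD4 T cell and dendritic markers. They did not overlap for neutrophil (841 to 1206 against 727 to 827), stromal (1069 to 1340 against 846 to 1041), megakaryocyte (443 to 465 against 333 to 390) and NK cell markers (354 to 390 against 397 to 564). No marker is listed at 0. The part of other cells in the separated genes was not tested, and in bulk RNA fewer cells of a type and less RNA per cell cannot be told apart.

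For most separated genes the same division was seen in arrays of the other groups. For each separated probe set, the midpoint between the means of the 2 sets gave every other array a side. Of the 174 probe sets higher in arrays 1 to 3, day-40 arrays 1 and 2 lay on the side of arrays 1 to 3 in 79.9% and 90.2%, and the 3 day-115 arrays in 80.5%, 83.3% and 82.8%. The share was 5.17% and 7.47% in day-40 arrays 3 and 4, and 0.575% to 4.02% in the 4 unirradiated arrays. Of the 568 lower probe sets, day-40 arrays 1 and 2 were on that side in 92.6% and 84.3% and the day-115 arrays in 85.7% to 96.5%, against 3.70% to 13.2% in the other 6. Of the 11 arrays outside day 5, 5 correlated better with the mean of arrays 1 to 3 and 6 with that of arrays 4 to 8.

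Nras shows the common pattern. It read 461 and 587 in day-40 arrays 1 and 2 but 2793 and 2832 in arrays 3 and 4, 730, 577 and 359 at day 115, and 4556, 3310, 3780 and 4266 in the unirradiated hosts. Coro1a read 1496 and 1750 but 428 and 470 at day 40, 1677, 3122 and 1539 at day 115, and 406, 438, 353 and 386 in the unirradiated hosts. Day 40 was thus divided in the same way as day 5. All day-115 arrays and no unirradiated array lay on the side of arrays 1 to 3 in 113 of the 174 higher and 387 of the 568 lower probe sets. In these genes the set cannot be told apart from the day for day 115, or from the lack of host irradiation for the unirradiated arrays, which were sorted on the same day as the day-5 arrays.

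Fos, Ier2, Dusp1 and the Hsp70 genes did not follow this pattern. Fos read 26.9, 110, 13.8 and 86.8 at day 40, 13.8, 13.8 and 16.6 at day 115, and 31.2, 95.0, 36.2 and 68.9 in the unirradiated hosts. Day-40 array 4 and the unirradiated arrays, which otherwise went with arrays 4 to 8, had more Fos than any day-115 array, and no array outside arrays 1 to 3 reached 146. On the midpoint rule, 2 of the 11 arrays lay on the side of arrays 1 to 3 for Fos, day-40 array 2 and unirradiated array 2. Ier2 read 501 in day-40 array 2 and 488 in day-115 array 2, and 146 to 219 in the other 9. Hspa1b read 17.7 to 45.1 and Hspa1a 28.2 to 36.4 over all 11 other arrays. Dusp1 read 23.3 to 38.6 there.

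In 8 of the 174 higher and 6 of the 568 lower probe sets, no array outside day 5 lay on the side of arrays 1 to 3. Named after their values were seen, the higher ones with 1 symbol were Hspa1b, Hspa1a, Dusp1, Junb in its dimmer probe set, Isg20 and Id3. The lower ones were Hspa9, the scaffold gene Ahnak, at -1.78, the integrin chain gene Itgb1, at -1.12, Ss18, Tsr1 and Ttc14. Ahnak read 628, 350 and 415 in arrays 1 to 3, 1264 to 2008 in arrays 4 to 8, and 929 to 3888 in the 11 other arrays.

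**Figure D4:**
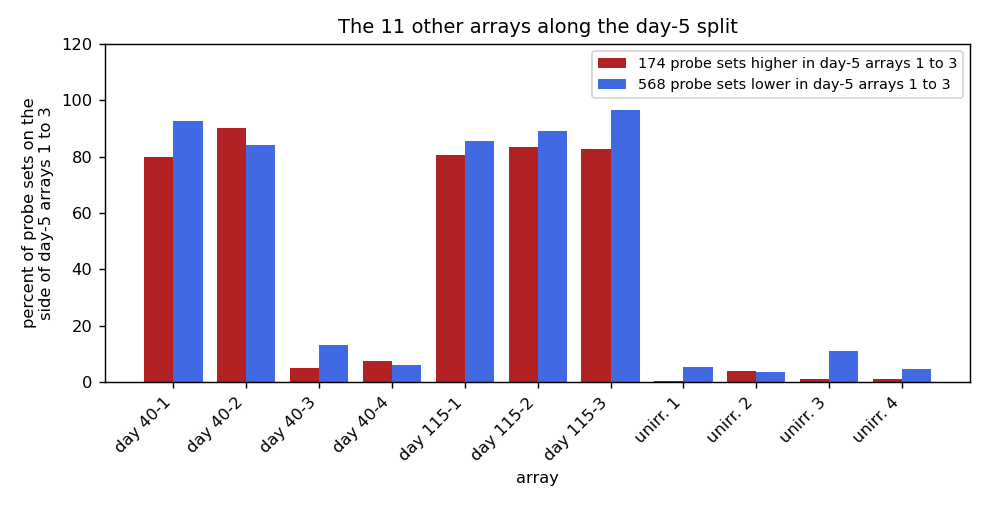
Bars from 0 give the percent of the 174 higher (red) and 568 lower (blue) probe sets for which each of the 11 arrays outside day 5 fell on the side of day-5 arrays 1 to 3. The day-115 arrays, with arrays 1 and 2 of day 40, stand at 79.9% or above, and the other 6 arrays at 13.2% or below.

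Separated genes were also set beside all examined genes in features that the choice of arrays did not use. The median span of the gene on the genome was 10485 bases in the 128 higher genes, 26425 in the lower genes and 18577 in all examined genes with a position. In 5 bins of equal size, from the shortest span to the longest, the share separated upward went through 3.20%, 2.66%, 2.58%, 1.09% and 0.469%, and the share separated downward through 2.89%, 6.33%, 8.37%, 10.4% and 8.59%. The correlation of span with the difference was -0.19 across 6397 genes. The median GC content of the 250 bases before the start was 58.4% in the higher, 63.2% in the lower and 59.6% in all genes, with a promoter for 103, 388 and 5144 of them, and its correlation with the difference was -0.10.

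Brightness went with separation in both directions. The median of the mean signals was 258 in the higher and 320 in the lower genes, against 104 for all. In the brightest of 5 equal bins of genes, 5.07% were separated upward and 21.9% downward, and in the dimmest 0.156% and 0.078%. The correlation of brightness with the difference was -0.23 across 6409 genes. Dim genes can hardly reach a 2-fold difference on a scale with a pseudocount of 16, so the shares by brightness partly follow from the scale. These correlations are across genes, which are not independent replicates.

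Within each set the arrays were not all alike. Among arrays 1 to 3, the globin gene Hba-a1 spanned the widest range, at 213, 2337 and 881, or 3.36 on the log2 scale. The summed erythroid signal ran from 1001 to 3448 over these 3 arrays. Array 2, with the most Hba-a1, was also the highest in Fos, but array 3 had more Hba-a1 than array 1 and less Fos. Arrays 7 and 8 read 670 and 568 for Hba-a1, and 28.3 and 16.6 for Fos. Cks2, a partner of the mitotic kinase, read 521, 74.0 and 73.4, and the ribonucleotide reductase gene Rrm2 spanned 2.34, also highest in array 1. The granzyme gene Gzmb read 94.4, 66.6 and 426. Of the probe sets examined, 256 (2.94%) spanned 2-fold or more within arrays 1 to 3 and 430 (4.95%) within arrays 4 to 8, against 182 (2.09%) in the 4 unirradiated arrays. The 3 groups differ in size, and larger groups span more.

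The sex-linked transcripts cut across the 2 sets. Eif2s3y, a translation factor gene of the Y chromosome, read 264 and 305 in arrays 5 and 6 and 10.2 to 12.5 in the 6 other day-5 arrays. Xist, the RNA that silences an X chromosome, read 16 and 15.4 in arrays 5 and 6 but 485, 924 and 741 in arrays 4, 7 and 8, and 102, 442 and 174 in arrays 1 to 3. Unirradiated arrays 1 and 2 had Eif2s3y at 260 and 285 and Xist at 15.1 and 16.6, and unirradiated arrays 3 and 4 the reverse, with Xist at 1001 and 1095. No day-40 or day-115 array read above 13.7 for Eif2s3y. Arrays 4 to 8 thus held arrays with and without Eif2s3y signal. Without arrays 5 and 6, 729 probe sets were separated, 674 of them the same. The part of donor or host sex in the division was not tested.

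**Figure D5:**
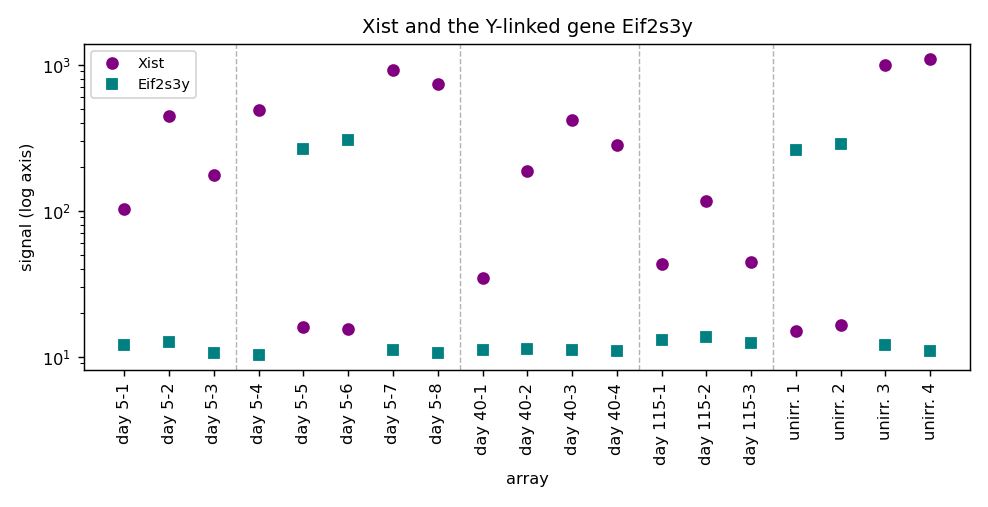
Signal intensity on a log axis of Xist (circles) and the Y-linked gene Eif2s3y (squares) in each of the 19 arrays, with dashed lines between the sets and groups. Eif2s3y stands at 260 to 305 in day-5 arrays 5 and 6 and unirradiated arrays 1 and 2 and at 13.7 or below elsewhere, and Xist is lowest in the same 4 arrays.

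The day-5 arrays were compared with the unirradiated hosts to see what the division does to a comparison that the labels imply. With all 8 day-5 arrays, limma called 69 of 8695 probe sets (0.794%) at an adjusted p under 0.05 by the method of Benjamini and Hochberg, 36 higher and 33 lower at day 5. With arrays 4 to 8 alone it called 69 too (0.794%), 50 higher and 19 lower. With arrays 1 to 3 alone it called 3023 (34.8%), 1624 higher and 1399 lower. Since the correlations that chose arrays 1 to 3 use the same signals, the choice favours calls in either set, and these counts are no separate evidence. All these comparisons use the same 4 unirradiated arrays, so their calls are not independent of each other. Each fit also took its spread from all groups kept, among them day 40, which was divided like day 5. Nras, even in arrays 4 to 8 and in the unirradiated hosts, had an SE of 0.44 with arrays 4 to 8. Few calls with arrays 4 to 8 therefore do not show likeness to the unirradiated hosts. How far this spread changed the counts was not tested. Without day-5 array 1, 3 or 6 the 69 calls became 34, 39 and 45, and without unirradiated array 1, 2, 3 or 4 they became 23, 38, 25 and 13.

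Of the separated probe sets, 1 of the 174 higher, a probe set with no single symbol, and 1 of the 568 lower, Egr1, were called with all 8 arrays. With arrays 1 to 3 alone 170 and 521 were called. With arrays 4 to 8 alone 0 and 10 were called, of which 9 were higher than in the unirradiated hosts and 1, Egr1, lower. Named after their values were seen, the 9 included E2f8, a repressor of the cell cycle, at 1.33 ± 0.19 (SE), Fignl1, an ATPase of DNA repair, at 1.57 ± 0.29, the nuclear import gene Kpna2, at 1.10 ± 0.18, and Vcam1, at 1.41 ± 0.21. The choice of probe sets high in arrays 4 to 8 favours such rises as well. At an unadjusted p under 0.05 in limma, arrays 4 to 8 gave 10 of the 174 and 59 of the 568. Nras differed from the unirradiated hosts by -3.27 with arrays 1 to 3 and by 0.06 with arrays 4 to 8. Fos differed by 2.34 and by -0.99. The mean of the 8 arrays, -1.19 for Nras and 0.26 for Fos, describes neither set, and with all 8 neither gene passed in limma (adjusted p = 0.472 and 0.879 by Benjamini-Hochberg).

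S100a6, a calcium-binding protein of activated and memory T cells, differed by 2.42 with arrays 1 to 3 and by 3.03 with arrays 4 to 8. It read 367, 189 and 673 in arrays 1 to 3, 532, 633, 623, 525 and 512 in arrays 4 to 8, and 32.9 to 80.8 in the unirradiated hosts, with no overlap. Egr1 read 593, 781, 716 and 761 in the unirradiated hosts, above all 8 day-5 arrays. It differed by -2.45 with arrays 1 to 3 and by -1.15 with arrays 4 to 8, and by -1.64 ± 0.32 (SE) with all 8 (limma, adjusted p = 0.022 by Benjamini-Hochberg). Lgals1, a galectin of activated T cells, differed by 2.78 with arrays 1 to 3 and by 1.72 with arrays 4 to 8. With arrays 4 to 8 it was not called (limma, adjusted p = 0.153 by Benjamini-Hochberg). For these 3 genes the direction against the unirradiated hosts was the same in both sets.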

How the data were processed

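The deposited table holds 1 signal intensity per probe set and array for 19 oligonucleotide arrays of mouse total RNA. No source used here gives how the authors computed or scaled them. Of 12488 probe sets, 66 control probe sets were left out. A probe table gave 1 gene symbol to 10833 of the rest, several to 396 and none to 1193. Of the 10833, 10817 matched RefSeq genes of GRCm38.p6 by gene ID.

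A pseudocount of 16 was added, log2 taken, and probe sets at or under the 30th percentile of the mean over all arrays left out, with 8695 kept for 6409 genes. No normalisation was added. The rule and the members, the gene lists and the settings were chosen with earlier results of these data known. The 2 sets of day-5 arrays were described and not tested against each other. Named genes were the 12 largest non-overlapping differences in each direction, up to 4 separated members per list with the largest differences, and a panel of stress, early and CD8 T cell genes.

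Day 5 was compared with unirradiated hosts in limma 3.58.1 (R 4.3.3) over all 19 arrays, with group as the only factor, an intensity trend and Benjamini-Hochberg adjustment over all probe sets, at a threshold of 0.05. The limma fit was tested on simulated data, which held independent noise and no division within a group. Alternatives were other pseudocounts and filters, quantile normalisation, a replicate block and leaving out arrays. For arrays the number of samples limits the precision.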

Additional observations from a re-analysis of the deposited data

Results flagged for a closer look

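Among the 142 named genes, 8 had an array far from the rest of its group, out of 284 groups looked at (all 8 day-5 arrays, and arrays 4 to 8). The measure is the gap of the highest or lowest array to its neighbour as a share of the whole range, set against Dixon's critical value. Chance flags about 1 in 20 groups.

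Among all 8 day-5 arrays, Fosb was highest in array 2, at 179.3 (gap 0.72), the anti-proliferative gene Btg1 highest in array 1, at 854.7 (0.691), and Egr2 lowest in array 1, at 32.35 (0.65). Among arrays 4 to 8, the stress factor Atf4 was highest in array 6, at 527.2 (0.712), Cd4 highest in array 8, at 165.2 (0.761), and the receptor chain gene Cd3d lowest in array 4, at 462 (0.768). The complex I subunit Ndufa5 was highest in array 7, at 832.3 (0.736), and Smc4 highest in array 4, at 2028 (0.78).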

How the results depend on the processing

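The number of separated probe sets was 742 as reported. With a pseudocount of 64 it was 460, 90 higher and 370 lower in arrays 1 to 3, since a larger pseudocount shrinks differences, and with a pseudocount of 1 it was 939. It was 743 with no filter, 730 with a filter at the 50th percentile, 778 with arrays 2 and 3, and 7 and 8, averaged, and 742 to 872 without each day-5 array. Quantile normalisation gave 765, of which 33.7% were higher against 23.5% as reported and 667 were the same, and moved the proteasome median from -0.21 to 0.01. The number of arrays nearer to arrays 1 to 3 stayed 5 in every alternative run. Of 2130 alternative values for the 142 named genes, 65 moved by over 1 SD within the sets, in 49 genes. No separated gene changed sign, and the sign of the other named genes was not followed.

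The 69 calls of day 5 against unirradiated hosts became 3023 with arrays 1 to 3 alone, 1707 with a replicate block and 12 without the 4 arrays with Eif2s3y signal, a setting chosen after seeing the data. They ran from 13 to 80 without each array, and were 71, 55, 62, 48, 65 and 56 with pseudocounts of 1 and 64, no filter, the 50th percentile, quantile normalisation and averaged pairs. Whether the replicate numbers pair the samples is not known. Deviations of same-numbered day-5 and unirradiated arrays from their group means correlated at 0.0047, -0.13, 0.23 and 0.23. The day-5 deviations hold the division between the sets, so these values cannot decide it. Replicate numbers above 4 occur only at day 5, so those arrays share no block with an unirradiated array. The comparison within blocks thus rests on day-5 arrays 1 to 4, which include all of arrays 1 to 3. How far this accounts for the 1707 calls was not tested, nor was the cause of the other shifts.

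Values rest on 3 and 5 arrays of unstated handling, differences of dim genes are compressed, and 1 probe set often stands for a gene.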
